A study of Mus musculus with 12 samples.

Results

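The genes described here encode 5 soluble autophagy receptors (*Sqstm1*, *Nbr1*, *Optn*, *Tax1bp1* and *Calcoco1*) and 5 proteins of the ATG8 family (*Map1lc3a*, *Map1lc3b*, *Gabarap*, *Gabarapl1* and *Gabarapl2*). They were taken by gene symbol from a fixed list, and 10 of the 10 were among the 10697 genes of the expression table. In autophagy, ATG8 proteins are conjugated to phosphatidylethanolamine on the growing autophagosome membrane. Receptors bind ubiquitylated or otherwise marked cargo with one part of the protein and ATG8 with a short LC3-interacting motif, so that cargo is enclosed and carried to the lysosome. Both receptors and conjugated ATG8 are themselves degraded there, and the genes of several members are known to be transcribed more when lysosomal or oxidative stress programmes are active.

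The samples were primary mouse adult fibroblasts (MAFs), wild-type cells grown out of tissue pieces of C57BL6/j mice. Of the 12 libraries, 6 came from MAFs given 100 µM thymol, a plant phenol dissolved in DMSO, for 24 h, and 6 from MAFs given the same volume of DMSO alone. Transcripts were read by QuantSeq 3′ mRNA sequencing, which yields about 1 read per transcript from its 3′ end, so levels of different genes can be set side by side without a length correction. The sources used here do not tie libraries to separate animals or cultures, so the p-values measure the spread between these libraries, which may be technical.

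Levels are given as log2 CPM, the logarithm of reads scaled to a common library size. Depth, recovered from the steps between low values, ranged from 5435985 to 9049796 reads, and thymol replicate 5 was the deepest library. Of 12 fibroblast markers 11 were measured, and so were 13 of 13 macrophage markers, 1 of 5 endothelial, 2 of 6 muscle and 0 of 6 epithelial markers. The fibroblast markers summed to between 13703 and 14312 CPM with thymol and between 14512 and 15555 CPM with DMSO, and the macrophage markers to between 17711 and 21228 CPM and between 17645 and 19489 CPM. The muscle markers summed to between 93.2 and 125 CPM and between 133 and 160.0 CPM. The groups did not overlap in the fibroblast and muscle sums and overlapped in the macrophage sum. In every library the macrophage sum was above the fibroblast sum, although the sums hold different genes. The levels given below are of bulk RNA and were not assigned to a cell type. With thymol 2 fibroblast, 2 macrophage and 1 muscle marker were called lower, as were 1.57% of all genes. By point estimate 4 fibroblast markers were higher and 7 lower, and 6 macrophage markers were higher and 7 lower. The muscle sum rests on 2 genes, both lower. The part of these cell type markers in the results was not tested, and in bulk RNA fewer cells of a type and less RNA per cell cannot be told apart.

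Neither receptor nor ATG8 transcripts differed between thymol and DMSO past the threshold, which was 0.05 for limma's adjusted p-value. Of the 10 genes 0 passed, against 2.22% of all genes: 0 were called higher (0.654% of all genes) and 0 lower (1.57%). An unadjusted limma p-value under 0.05 was found for 0 of the 10, against 11.8% of all genes, and in the exact permutation test for 1 of the 10 (*Nbr1*), against 11% of all genes. Their log2 fold changes, thymol minus DMSO, ran from -0.083 (*Gabarapl2*) to 0.17 (*Nbr1*), with a median of -0.0098 against 0.0026 over all genes. The median size of change, without regard to sign, was 0.035 for the 10 genes and 0.098 over all genes. For 8 of the 10 genes the whole 95% confidence interval lay within 0.32 log2 units in either direction, that is between a rise of 25% and a fall of 20%, as it did for 41.4% of all genes. The exceptions were *Nbr1* and *Optn*. The size of change and the interval width both depend on precision. The median standard error (SE) was 0.072 for the 10 genes and 0.12 over all genes. A smaller SE narrows intervals and tends to give smaller estimates, so these comparisons do not show that the 10 genes were steadier than others. In 0 of the 10 genes were the groups free of overlap, against 1.68% of all genes. Missing the threshold does not show that levels were equal, so the intervals below state how large a change this fit leaves possible. In limma each gene's variance is drawn towards that of genes at a similar level, so the intervals do not rest on its own spread alone.

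**Figure D1:**
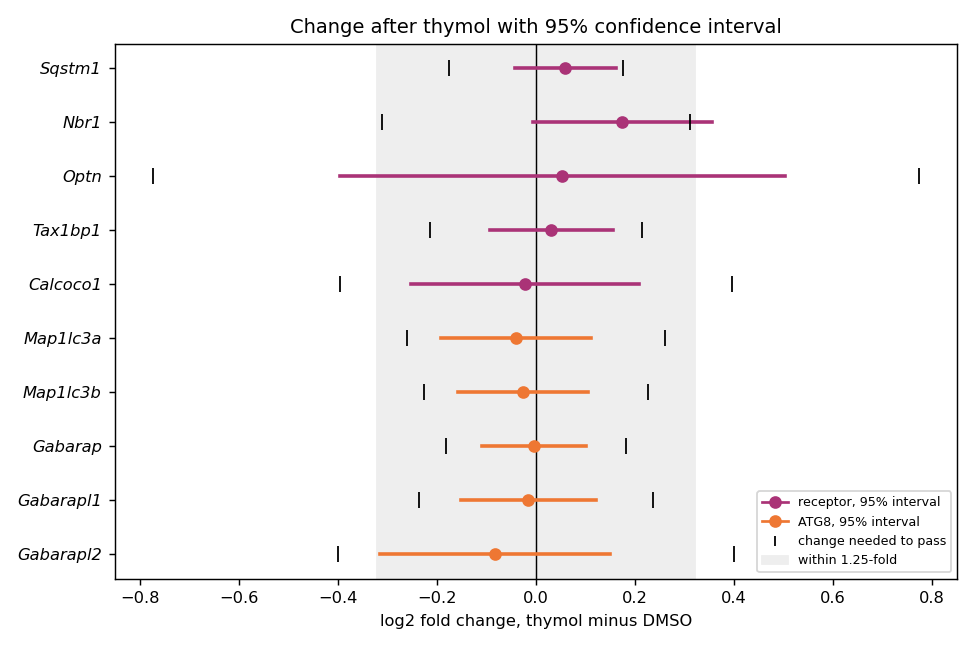
Log2 fold change of each gene (thymol minus DMSO, horizontal axis) with its 95% confidence interval from limma; n = 6 libraries per group, the shaded band spans a fall of 20% to a rise of 25%, and the short vertical ticks mark the change that would have passed the adjusted threshold. The intervals of *Nbr1* and *Optn* leave the band, and all 10 intervals include 0.

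The windows around the transcription starts of 9 of the genes (all but *Map1lc3a*) were searched for motifs of factors that are known to act on autophagy or stress genes. Of these 9, 0 held CACGTG, the core bound by TFEB, in a window of 250 bases before to 50 bases after a start, while 12.1% of the table genes with a window did. TGACNNNGC, the core of the antioxidant response element bound by NRF2, was found on either strand in 2 of the 9 (*Map1lc3b* and *Tax1bp1*) and in 17.1% of table genes. TGATGNAA (ATF4) and TGTTTAC (FOXO) were in 0 of the 9, and in 2.64% and 3.08% of table genes. The windows of 3 genes are printed from RefSeq (GRCm38.p6), 5′ to 3′ on the strand of the gene, with any of these motifs in capitals: the 2 that hold one, and that of *Sqstm1*, the most abundant of the 10 transcripts, which holds none. A motif is a run of letters and not evidence of binding, and sites outside the window were not searched.
Sqstm1, chr11:50210771-50211070, minus strand: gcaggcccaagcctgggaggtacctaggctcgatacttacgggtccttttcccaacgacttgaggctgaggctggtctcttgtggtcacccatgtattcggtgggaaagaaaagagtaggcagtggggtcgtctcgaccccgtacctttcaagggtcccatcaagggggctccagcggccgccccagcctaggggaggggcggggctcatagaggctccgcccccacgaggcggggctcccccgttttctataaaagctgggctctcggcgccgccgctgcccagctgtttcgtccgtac
Map1lc3b, chr8:121590188-121590487, plus strand: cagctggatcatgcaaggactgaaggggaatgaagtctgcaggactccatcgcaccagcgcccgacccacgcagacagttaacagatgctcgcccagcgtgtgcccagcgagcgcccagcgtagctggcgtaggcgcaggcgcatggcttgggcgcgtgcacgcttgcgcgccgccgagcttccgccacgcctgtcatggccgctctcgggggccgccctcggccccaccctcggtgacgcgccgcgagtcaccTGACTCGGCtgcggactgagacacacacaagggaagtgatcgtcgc
Tax1bp1, second start, chr6:52713915-52714214, plus strand: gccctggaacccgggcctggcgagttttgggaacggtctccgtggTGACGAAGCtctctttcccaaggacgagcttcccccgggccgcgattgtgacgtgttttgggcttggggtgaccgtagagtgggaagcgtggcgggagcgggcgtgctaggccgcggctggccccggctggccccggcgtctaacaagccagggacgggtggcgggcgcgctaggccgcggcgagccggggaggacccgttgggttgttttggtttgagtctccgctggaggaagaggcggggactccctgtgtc

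Among the receptors, *Sqstm1* (chromosome 11, 50199366 to 50210827, minus strand; coordinates here and below are of GENCODE vM21 on GRCm38) encodes p62, which binds ubiquitin and ATG8 and also holds the NRF2 inhibitor KEAP1. With thymol its level ran from 8.83 over a median of 8.86 to 9.02 log2 CPM, and with DMSO from 8.76 over 8.85 to 8.93. The groups overlapped, although 2 of the 6 thymol libraries, replicates 2 and 5, lay above every DMSO library. The means were 8.90 ± 0.078 in thymol and 8.84 ± 0.060 in DMSO libraries (SD, n = 6 per group). Its log2 fold change was 0.060 (95% confidence interval -0.043 to 0.16, limma adjusted p = 0.74), that is 1.04-fold with bounds of 0.971-fold and 1.12-fold. A change of 1.13-fold would have passed the threshold. On the opposite strand *Mrnip* overlaps the 3′ end of the *Sqstm1* gene and lies within 300 bases of 3 of the 4 annotated ends of its coding transcripts. *Mrnip* was not among the table's genes, and the strand setting of the counting was not given in the sources used here.

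*Nbr1* (chromosome 11, 101552149 to 101581951, plus strand), a receptor with a domain layout like that of p62, had the largest difference of the 10. With thymol it ran from 5.83 over a median of 6.02 to 6.12 log2 CPM, and with DMSO from 5.57 over 5.87 to 5.97. In 5 of the 6 thymol libraries its level was above every DMSO library, and the exception was replicate 5. The means were 6.00 ± 0.095 in thymol and 5.83 ± 0.16 in DMSO libraries (SD, n = 6 per group). This gave a log2 fold change of 0.17 (95% confidence interval -0.0055 to 0.36, limma adjusted p = 0.44), that is 1.13-fold with bounds of 0.996-fold and 1.28-fold. The unadjusted p-value was 0.057 in limma, and 0.028 in the exact two-sided permutation test of the group means (n = 6 each). After adjustment over all genes the permutation p was 0.37. Passing this adjustment at the smallest possible permutation p-value, 0.0022, would have needed 464 genes there, and 180 reached it. Without thymol replicate 5 the log2 fold change was 0.21 (95% confidence interval 0.023 to 0.40). Without DMSO replicate 2 the interval was 0.012 to 0.39, and without DMSO replicate 3 it was 0.012 to 0.40. With any other library left out the interval included 0, and without DMSO replicate 5 the log2 fold change was 0.12 (-0.062 to 0.31). None of these fits passed the adjusted threshold for *Nbr1*.

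*Optn* (chromosome 2, 5020642 to 5064051, minus strand) encodes optineurin, a ubiquitin-binding receptor of damaged mitochondria and bacteria. It was the least abundant of the 10, with 40 to 93 reads per library, and the most variable. With thymol it ran from 2.67 over a median of 3.52 to 3.97 log2 CPM, and with DMSO from 2.60 over 3.38 to 3.93. The groups covered nearly the same range, each with 1 library near its bottom, thymol replicate 5 and DMSO replicate 2. The estimated log2 fold change was 0.053 (95% confidence interval -0.40 to 0.50, limma adjusted p = 0.97), with bounds of 0.76-fold and 1.42-fold. These bounds depend on the fit, and without its mean-variance trend the interval was wider, -0.47 to 0.58. A change under 1.71-fold would not have passed, and the direction rested on single libraries: without DMSO replicate 2 the log2 fold change was -0.10, and without thymol replicate 5 it was 0.21.

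*Tax1bp1* (chromosome 6, 52713729 to 52766780, plus strand) and *Calcoco1* (chromosome 15, 102706777 to 102722178, minus strand) belong to one family of coiled-coil receptors, with roles in the removal of protein aggregates and, for CALCOCO1, of endoplasmic reticulum and Golgi membranes. *Tax1bp1* ran from 7.46 over a median of 7.61 to 7.70 log2 CPM with thymol and from 7.47 over 7.56 to 7.66 with DMSO. Between groups the log2 fold change was 0.031 (95% confidence interval -0.093 to 0.16, limma adjusted p = 0.92), or 1.02-fold with bounds of 0.937-fold and 1.11-fold. *Calcoco1* ran from 5.19 over 5.42 to 5.85 log2 CPM with thymol and from 5.11 over 5.53 to 5.78 with DMSO. Thymol replicates 2, 4 and 5 lay between 5.19 and 5.28 and the other thymol libraries at 5.57 or above, and the groups overlapped. Its log2 fold change was -0.022 (95% confidence interval -0.25 to 0.21, limma adjusted p = 0.98). Without DMSO replicate 4 it was 0.039 and without thymol replicate 3 it was -0.10.

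**Figure D2:**
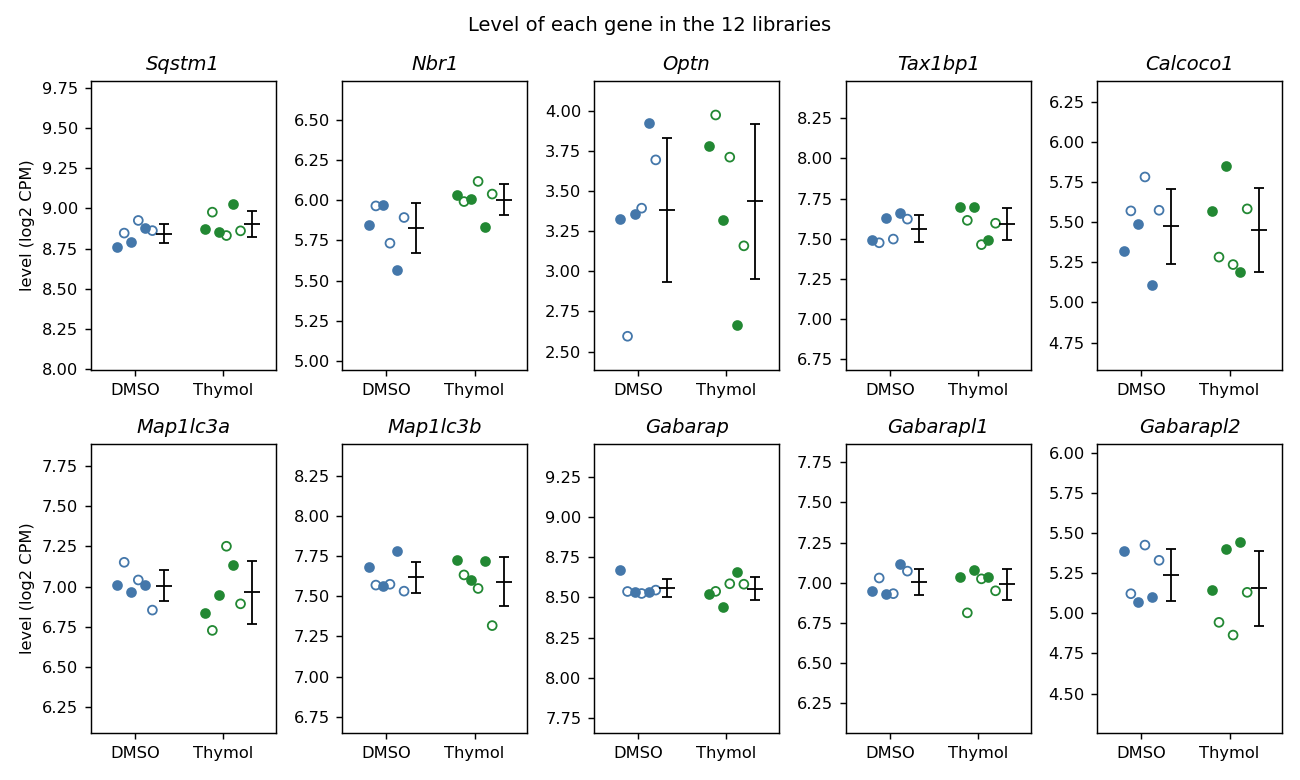
Level of each gene (log2 CPM, vertical axis, the same span of 1.8 in every panel) in the 6 DMSO and 6 thymol libraries; filled points are odd-numbered and open points even-numbered libraries, and the bar beside them is the mean ± SD. The groups overlap in all 10 panels, and *Optn* and *Calcoco1* are the most spread.

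The LC3 proteins act mainly in membrane growth and cargo capture. *Map1lc3b* (chromosome 8, 121590361 to 121598760, plus strand) encodes LC3B, the form whose lipidated state is the usual measure of autophagosomes. It ran from 7.32 over a median of 7.62 to 7.73 log2 CPM with thymol and from 7.53 over 7.57 to 7.78 with DMSO. Thymol replicate 6 lay below every DMSO library, and 0 of the 6 thymol libraries lay above. The log2 fold change was -0.026 (95% confidence interval -0.16 to 0.11, limma adjusted p = 0.95), or 0.982-fold with bounds of 0.896-fold and 1.08-fold. Without thymol replicate 6 it was 0.028. *Map1lc3a* (chromosome 2, 155276297 to 155278073, plus strand), which encodes LC3A, ran from 6.73 over 6.92 to 7.25 log2 CPM with thymol and from 6.85 over 7.01 to 7.15 with DMSO. The thymol libraries held both the lowest level (replicate 2) and the highest (replicate 4). Here the log2 fold change was -0.040 (95% confidence interval -0.19 to 0.11, limma adjusted p = 0.92), and without thymol replicate 2 it was 0.0078.

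The GABARAP proteins act mainly in autophagosome closure and fusion with the lysosome. *Gabarap* (chromosome 11, 69991143 to 69994951, plus strand) had one of the narrowest intervals of the 10. It ran from 8.44 over a median of 8.56 to 8.66 log2 CPM with thymol and from 8.52 over 8.54 to 8.67 with DMSO. In the DMSO group 5 libraries lay between 8.52 and 8.55, and replicate 1 stood apart at 8.67. Its log2 fold change was -0.0042 (95% confidence interval -0.11 to 0.10, limma adjusted p = 0.99), or 0.997-fold with bounds of 0.927-fold and 1.07-fold, and without DMSO replicate 1 it was 0.019. *Gabarapl1* (chromosome 6, 129533160 to 129542346, plus strand) ran from 6.81 over 7.03 to 7.08 log2 CPM with thymol and from 6.93 over 6.99 to 7.12 with DMSO. Here the log2 fold change was -0.015 (95% confidence interval -0.15 to 0.12, limma adjusted p = 0.97), and without thymol replicate 2, the lowest library, it was 0.020. *Gabarapl2* (chromosome 8, 111940703 to 111953612, plus strand), which encodes GATE-16, ran from 4.86 over 5.14 to 5.45 log2 CPM with thymol and from 5.07 over 5.23 to 5.42 with DMSO. In the thymol group replicates 2 and 4 lay below every DMSO library and replicate 5 lay above. This gave a log2 fold change of -0.083 (95% confidence interval -0.32 to 0.15, limma adjusted p = 0.87), or 0.944-fold with bounds of 0.803-fold and 1.11-fold.

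All 5 ATG8 genes were lower with thymol by point estimate and 4 of the 5 receptor genes higher, with medians of -0.026 and 0.053 on the log2 scale. None of these differences passed the test. Summed over the family, the ATG8 transcripts came to 859 ± 42.4 CPM in thymol and 869 ± 26.3 CPM in DMSO libraries (SD, n = 6 per group). The receptors came to 793 ± 23.2 CPM with thymol and 762 ± 23.4 CPM with DMSO. The receptor sums ran from 752 to 818 CPM with thymol and from 722 to 785 CPM with DMSO. The groups overlapped in both sums, which were not tested.

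The levels were then ordered over all 12 libraries. *Sqstm1* was highest, at 479 CPM with thymol and 460 CPM with DMSO on average, and lay above *Gabarap* in 12 of 12 libraries, by 0.32 on the log2 scale. *Gabarap* lay above *Map1lc3b* by 1.94-fold, again in 12 of 12. *Map1lc3b* and *Tax1bp1* did not differ beyond their spread, with *Map1lc3b* higher in 8 of 12 libraries, nor did *Gabarapl1* and *Map1lc3a*, where *Gabarapl1* was higher in 6 of 12. *Map1lc3a* lay above *Nbr1* by 2.10-fold in 12 of 12 libraries. The ranges of *Nbr1* and *Calcoco1* overlapped, as did those of *Calcoco1* and *Gabarapl2*, although the order held in 11 and 10 of 12 libraries. *Optn* lay 3.45-fold below *Gabarapl2* in 12 of 12 libraries. In rank among all genes, *Sqstm1* and *Gabarap* stood at percentiles 97.5 and 96.7, and *Optn* at 18.2.

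The make-up of the ATG8 transcripts was also compared, as the share of each gene in their summed CPM. *Gabarap* made up 43.8% ± 1.94 in thymol and 43.4% ± 1.20 in DMSO libraries (SD, n = 6 per group). *Map1lc3b* made up 22.5% ± 1.94 and 22.6% ± 1.04, *Gabarapl1* 14.8% ± 0.828 and 14.8% ± 0.836, and *Map1lc3a* 14.6% ± 1.54 and 14.8% ± 0.968. *Gabarapl2* was the smallest part, with 4.19% ± 0.619 and 4.37% ± 0.485. The largest shift was 0.425 percentage points, for *Gabarap*, which is less than the SD of either group, and the shares were not tested. This shift was -0.155 points without thymol replicate 6 and 0.938 without thymol replicate 3, and it was -1.08 points among odd-numbered and 1.94 among even-numbered libraries. Of the receptor transcripts *Sqstm1* made up 60.5% ± 2.66 with thymol and 60.3% ± 1.28 with DMSO.

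**Figure D3:**
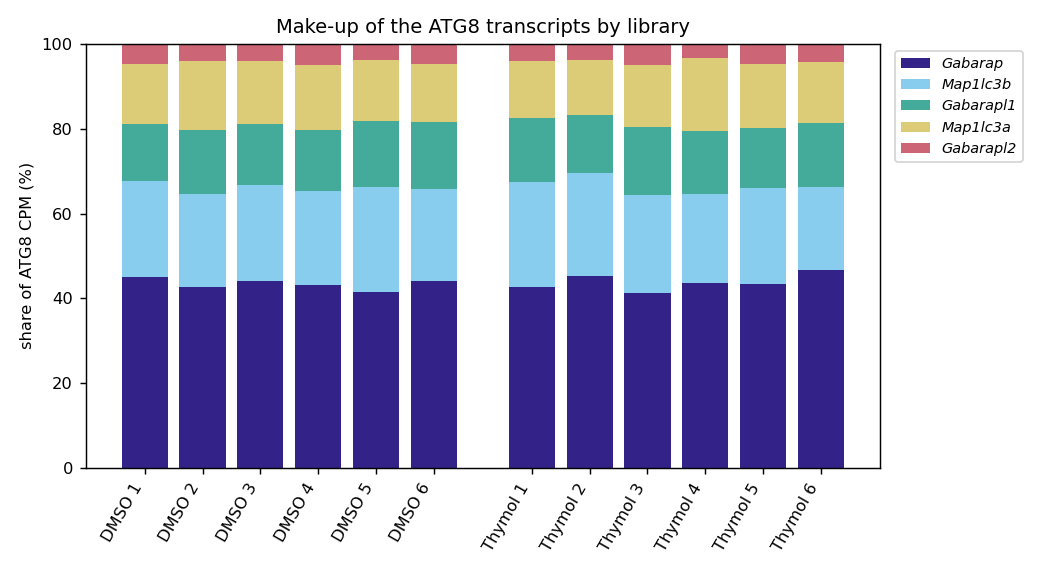
Share of each ATG8 gene in the summed ATG8 CPM (percent, vertical axis) in each library, DMSO 1 to 6 on the left and thymol 1 to 6 on the right. *Gabarap* holds between 41.3% and 46.7% in every library, and the bars differ as much within a group as between the groups.

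The spread between libraries exceeded what read counting alone gives. The SD expected from counting was 0.026 log2 units for *Sqstm1*, with 2527 to 4723 reads per library, and the SD measured within groups was 0.070. For *Optn* these values were 0.17 and 0.47, so its spread was 2.74 times that of counting. Over the 10 genes the ratio ran from 1.81 (*Nbr1* and *Gabarapl1*) to 3.18 (*Map1lc3b*). The counting value takes reads as independent molecules, which PCR products are not.

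Reads from near copies were looked for in the annotated transcripts. Stretches of 50 bases were taken from the last 300 bases of each coding transcript and matched to the transcripts of all other genes. For 9 of the 10 genes 0 stretches matched. For *Map1lc3b* 42 of 770 did (5.45%), in transcripts of 133 other genes. The processed pseudogenes *Gm12727*, *Gm6054* and *Gm6055*, which were not in the table, each matched 26 of these stretches. Genes that matched fewer stretches are not listed here, and some of them may be in the table. *Zcchc14* lies on the opposite strand within 300 bases of 1 of the 4 annotated ends of *Map1lc3b*, and its own level was 4.55 log2 CPM with a log2 fold change of -0.038. *Gm20388*, which was not in the table, spans *Map1lc3b* on the same strand. The level of *Map1lc3b* is uncertain to that extent.

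Libraries with odd and with even numbers were also examined apart, a split chosen with earlier results of these data known. The labels give no batch. The log2 fold change of *Nbr1* was 0.16 among odd-numbered and 0.19 among even-numbered libraries. *Tax1bp1* (0.036 and 0.026) and *Map1lc3a* (-0.021 and -0.058) also had the same sign in both, as did *Sqstm1* (0.11 and 0.012). *Calcoco1* had opposite signs in the odd and the even set, 0.23 and -0.27, and so did *Gabarapl2*, 0.15 and -0.31, and *Optn*, -0.28 and 0.39. Signs were also opposite for *Gabarapl1* (0.052 and -0.082), *Map1lc3b* (0.0065 and -0.059) and *Gabarap* (-0.041 and 0.033), so 6 of the 10 genes differed in sign. The difference between the sets was tested as an interaction of treatment and odd or even number in limma, a test added after the data had been seen. Unadjusted limma p-values were 0.025 for *Calcoco1*, 0.045 for *Gabarapl2* and 0.14 for *Optn*, and for the other 7 genes they ran from 0.32 (*Gabarapl1*) to 0.94 (*Tax1bp1*). The adjusted ones of all 10 lay between 0.992 and 0.997. Of all genes, 0 passed this interaction test, and 531 had an unadjusted p-value under 0.05 (4.96%), among them 2 of the 10.

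**Figure D4:**
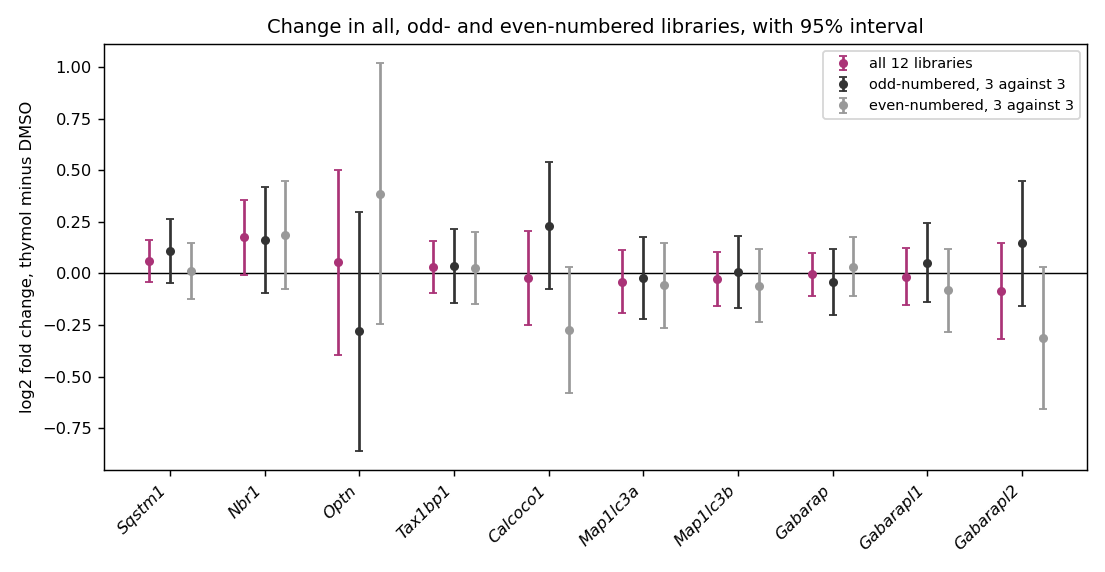
Log2 fold change (thymol minus DMSO, vertical axis) with 95% confidence intervals for all 12 libraries, for the odd-numbered ones and for the even-numbered ones (3 against 3 each). By point estimate *Nbr1*, *Sqstm1* and *Tax1bp1* lie above 0 in all 3 sets and *Map1lc3a* below. The other genes lie on opposite sides of 0 in the odd and even sets, and every interval includes 0.

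The genes with the pattern most like that of *Sqstm1* across the 12 libraries, once each group was centred on its mean, were *Nedd4* (Pearson's r = 0.91, Spearman's rho = 0.87), *Atxn7l3b* (r = 0.91, rho = 0.92) and *Gnai3* (r = 0.88, rho = 0.85). For *Map1lc3b* they were *Dnajb11* (r = 0.92, rho = 0.90), *Sspn* (r = 0.91, rho = 0.87) and *Pcif1* (r = 0.87, rho = 0.76). These were the highest values in the table over 12 libraries that share their depth and scaling, and they are given as a description. Among the other 9 genes the one most like *Sqstm1* was *Map1lc3b*, with r = 0.30, which ranked 2226 in the table.

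The partners of the receptors and ATG8 proteins were described from 8 lists, of which 68 of 72 genes were measured. Past the adjusted threshold in limma were 0 of the 68, against 2.22% of all genes. At that share few or none would be looked for in lists this short. An unadjusted limma p-value under 0.05 was found for 4 (5.88%, against 11.8% of all genes). The exact permutation test gave 5 with an unadjusted p-value under 0.05 (7.35%, against 11% of all genes). Their median log2 fold change was 0.011, with 37 higher and 31 lower by point estimate. The interval lay within 0.32 log2 units in either direction for 38 of the 68 genes (55.9%, against 41.4% of all genes). The genes named below are the 3 of each list with the smallest p-values.

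In the list of ATG8 processing and lipidation, which holds the ATG4 proteases and the conjugation enzymes, 0 of 11 genes passed and the median log2 fold change was -0.041. *Wipi2*, which recruits the conjugation complex, was at 6.41 ± 0.033 log2 CPM in thymol and 6.28 ± 0.12 in DMSO libraries (SD, n = 6 per group), with all 6 thymol libraries above the DMSO median. Its log2 fold change was 0.13 (95% confidence interval -0.024 to 0.29). *Atg7*, the E1-like enzyme, had a log2 fold change of 0.16 (-0.041 to 0.36) and *Atg16l1* of -0.14 (-0.39 to 0.11). Their limma adjusted p-values were 0.54, 0.58 and 0.75.

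Of the 8 mitophagy receptors 0 passed, 6 were lower by point estimate and the median log2 fold change was -0.11. *Fkbp8*, an outer-membrane receptor, was at 6.96 ± 0.097 log2 CPM in thymol and 7.11 ± 0.15 in DMSO libraries (SD, n = 6 per group). That is a log2 fold change of -0.15 (95% confidence interval -0.29 to -0.0030, limma adjusted p = 0.41). *Nipsnap1* (-0.32, interval -0.79 to 0.15) and *Nipsnap2* (-0.12, interval -0.31 to 0.080) followed. Of the 7 receptors of the endoplasmic reticulum 0 passed and 5 had intervals within the same bounds. *Sec62* had a log2 fold change of 0.067, *Rtn3* of -0.040 and *Atl3* of -0.033. Among 6 measured adaptors of other cargo 0 passed, with *Tecpr1* at 0.12, *Stbd1*, which binds glycogen, at -0.21 and *Nufip1*, which binds ribosomes, at 0.16.

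The effectors that link ATG8 to transport and lysosomal fusion gave 0 of 8 past the threshold and 6 higher by point estimate. *Plekhm2*, an adaptor that moves lysosomes along microtubules, was at 6.42 ± 0.10 log2 CPM in thymol and 6.25 ± 0.13 in DMSO libraries (SD, n = 6 per group). Its log2 fold change was 0.17 (95% confidence interval 0.0070 to 0.33, limma adjusted p = 0.39), and all 6 thymol libraries lay above the DMSO median. The fusion adaptor *Plekhm1* (0.14, interval -0.054 to 0.34) and *Tbc1d15* (0.18, interval -0.022 to 0.38), a RAB7 regulator, were the others with the smallest p-values.

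Enzymes that modify or bind the receptors gave 0 of 10 past the threshold. *Keap1*, which p62 sequesters, was at 6.63 ± 0.15 log2 CPM in thymol and 6.48 ± 0.044 in DMSO libraries (SD, n = 6 per group). That is a log2 fold change of 0.15 (95% confidence interval -0.0075 to 0.30, limma adjusted p = 0.46). *Usp30*, a mitochondrial deubiquitylase, had a log2 fold change of 0.28 (-0.076 to 0.64), and *Ubb*, a polyubiquitin gene, of -0.068 (-0.19 to 0.051).

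Of the 8 transcription factors known to act on receptor and ATG8 genes 0 passed and 6 were higher by point estimate. *Mitf*, a relative of TFEB, had the smallest p-value of all 68 partner genes. Its level ran from 5.21 over a median of 5.35 to 5.48 log2 CPM with thymol and from 4.86 over 5.03 to 5.35 with DMSO, and all 6 thymol libraries lay above the DMSO median. The estimated log2 fold change was 0.28 (95% confidence interval 0.065 to 0.50, unadjusted p = 0.012, limma adjusted p = 0.22). *Tfeb* itself, with a mean of 63.6 reads per library, had a wide interval (0.25, -0.18 to 0.68), and *Nfe2l2*, which encodes NRF2, had a log2 fold change of -0.086 (-0.21 to 0.037).

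Since *Sqstm1* is a known NRF2 target, 10 other targets were set beside it, and 0 passed. *Hmox1*, heme oxygenase, was at 8.74 ± 0.14 log2 CPM in thymol and 8.61 ± 0.10 in DMSO libraries (SD, n = 6 per group). That is a log2 fold change of 0.13 (95% confidence interval 0.016 to 0.25, limma adjusted p = 0.32). *Prdx1* had a log2 fold change of 0.073 (-0.017 to 0.16) and *Nqo1* of -0.13 (-0.35 to 0.095). The median of the list was 0.016.

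**Figure D5:**
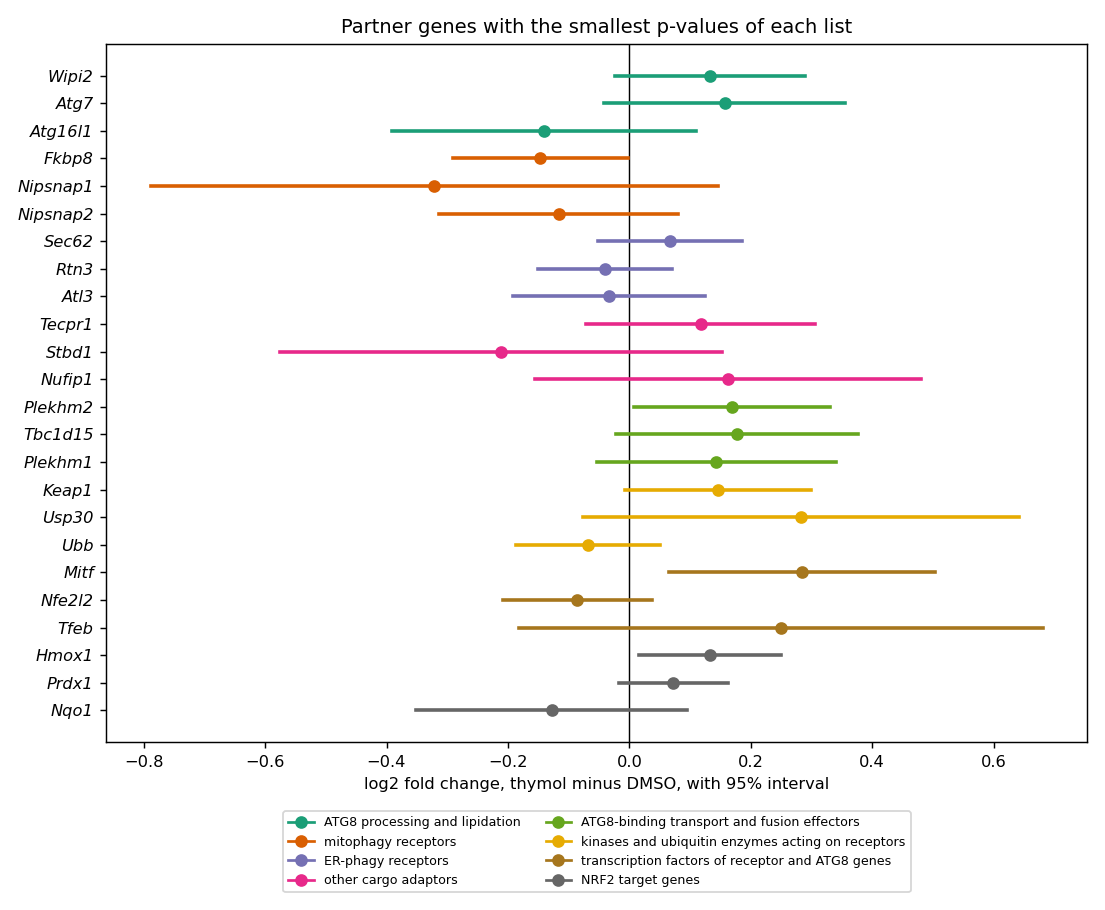
Log2 fold change (thymol minus DMSO, horizontal axis) with 95% confidence interval for the 3 genes of each of the 8 partner lists with the smallest p-values, coloured by list. The intervals of *Fkbp8*, *Plekhm2*, *Mitf* and *Hmox1* leave out 0, and none of the genes passed the adjusted threshold.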

How the data were processed

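The authors aligned QuantSeq reads to GRCm38 with STAR 2.5.3 and counted them per gene with HTSeq 0.6.1 (versions from the submitters' processing notes). They state a filter of 30 or more reads in 6 or more samples, which 98.0% of the table's genes met in the recovered reads. Unannotated genes were dropped and libraries scaled by TMM. The deposited values are log2 CPM on the scaled totals, a small prior count included. Undoing the logarithm gave whole reads for 100% of values under 200 reads (tolerance 0.02). The prior equals 1.96 reads in an average library. It raises the levels of low genes and draws their log2 fold changes towards 0.

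All 12 libraries were fitted with limma 3.58.1 in R 4.3.3 (lmFit, then eBayes with trend), with group as the sole term. Two-sided p-values were adjusted by Benjamini-Hochberg over all 10697 genes, with a threshold of 0.05, and the 95% confidence intervals came from this moderated fit. It had 50.6 degrees of freedom in total, most of them borrowed from the other genes. The authors tested counts with edgeR, whereas the deposited log2 values call for limma, and voom on the recovered reads served as an alternative. The change needed to pass was the SE times the quantile at the largest p-value called (0.0011). CPM sums used the values with the logarithm undone. Permutation tests were exact over 924 relabellings, with a smallest possible p-value of 0.0022. The fit was also run on simulated counts in which every gene had the same spread beyond counting. The genes measured here differ in spread, so that run does not check the fit for such differences.

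All 10 members are named, and the 3 genes with the smallest p-values of each partner list. Members, lists and the odd and even split were chosen with earlier results of these data known.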

Additional observations from a re-analysis of the deposited data

Results flagged for a closer look

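Libraries standing apart from the other 5 of their group were sought with Dixon's test at the 95% level, which sets the gap to the closest library against the range. Of 32 groups, over levels and ATG8 shares of the 10 genes and read totals, 3 held such a library, where chance gives about 5% of groups. The level of *Gabarap* in DMSO replicate 1 was 8.67 log2 CPM, and the closest library was at 8.55. *Map1lc3b* made up 24.6% of the ATG8 CPM in DMSO replicate 5, and 22.6% in the closest library. Thymol replicate 5 held 9049796 recovered reads, and the closest thymol library 6585162.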

How the results depend on the processing

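Under every limma alternative run, 0 of the 10 genes and 0 of the 68 partner genes passed the threshold, and 6 to 10 of the 10 intervals lay between a fall of 20% and a rise of 25%. Over all genes 238 passed. Without the mean-variance trend 57 passed, in the odd-numbered libraries alone 70, in the even-numbered ones alone 167, and with a library left out 172 to 270. The exact permutation test over all genes, added after the data had been seen, passed 0, with 1175 at an unadjusted p-value under 0.05. Its smallest possible p-value, 0.0022, could pass the adjustment only if at least 464 genes reached it, and 180 did, so this 0 says nothing about stability. With replicate number as a block 332 genes and 0 of the 10 passed. The sources used here do not say whether libraries of the same number were paired. Libraries of the same number correlated by -0.051 to 0.27 over 5394 genes, and 3 of 12 correlated best with their own number. These values are too few and too weak to settle whether there was a pairing.

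Directions of the small differences were not stable. In the odd-numbered libraries alone the log2 fold change was -0.28 for *Optn*, 0.23 for *Calcoco1*, 0.0065 for *Map1lc3b*, 0.052 for *Gabarapl1* and 0.15 for *Gabarapl2*. *Gabarap* was at 0.014 after quantile normalization and at 0.033 in the even-numbered libraries alone. The *Gabarapl2* share of ATG8 CPM differed by 0.458 percentage points in the odd-numbered and by -0.812 in the even-numbered libraries, against -0.177 in all. With each library left out in turn, *Optn* ranged from -0.10 to 0.21, *Calcoco1* from -0.10 to 0.039, *Map1lc3a* from -0.097 to 0.0078, *Map1lc3b* from -0.054 to 0.028, *Gabarap* from -0.025 to 0.019 and *Gabarapl1* from -0.033 to 0.020. *Gabarapl2* ranged from -0.14 (thymol replicate 5 left out) to -0.025 (thymol replicate 4), *Tax1bp1* from 0.010 (thymol replicate 1) to 0.057 (thymol replicate 4), *Sqstm1* from 0.035 (thymol replicate 5) to 0.076 (DMSO replicate 4), and *Nbr1* from 0.12 to 0.21. *Sqstm1* was at 0.11 in the odd-numbered and 0.012 in the even-numbered libraries. The cause was not tested. A filter at 5 log2 CPM removed *Optn*.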
